A study of Mus musculus with 40 samples.

Results

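The genes described here are 34 genes of sterol and fatty acid metabolism, taken by name from a table of 39179 genes measured in mouse CD4 T cells. They comprise 15 enzymes of sterol synthesis, 6 regulators and transport proteins, 9 enzymes of fatty acid synthesis and 4 genes of cholesterol efflux or of the liver X receptor (LXR) response. They were picked by name, but the list was drawn up with earlier results of these data known. Shares of the 34 set beside those of all genes are therefore descriptive. All 34 passed the filter on low values, Fads2 only through the cultured libraries. They lie on 18 chromosomes, with Scd1 and Scd2 87.6 kb apart and Fads1 and Fads2 81.4 kb apart on chromosome 19. In the RefSeq annotation 10 of them overlap another gene: Acaca (Tada2a, Gm11437), Fdft1 (Ctsb), Lpcat3 (Emg1), Srebf1 (Rai1), Tm7sf2 (Vps51), Acss2 (Acss2os), Mvd (Gm51557), Lss (4930483K19Rik), Insig1 (Gm35223) and Elovl6 (Gm35986). Whether counting used strand is not stated, so their values are uncertain where reads of such pairs cannot be told apart.

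As background, cells build cholesterol from acetyl-CoA through the mevalonate pathway, and build saturated fatty acids from the same precursor through malonyl-CoA. Both routes are driven by the sterol regulatory element binding proteins, SREBPs, which SCAP escorts out of the endoplasmic reticulum when sterols are scarce and INSIG proteins hold back when sterols are plentiful. LXRs sense oxidised sterols and induce the exporters of cholesterol. T cells that begin to divide are known to switch from little lipid synthesis to much of it, for new membrane.

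SETDB1 deposits trimethylation on histone H3 lysine 9 (H3K9me3), which marks silent regions, and the study asked how its loss bears on T helper lineages. RNA came from spleen CD4 T cells of C57BL/6 mice, either Setdb1-/- (labelled Setdb1 KO) or wild type (WT), in 18 libraries. Naive cells, at day 0 of culture, gave 3 libraries labelled Setdb1 KO and 4 WT libraries. T helper 2 (Th2) cells gave 3 libraries of each label after 6 days with IL-4 at 50 ng/mL and antibody against IFN-gamma, in medium with 10% fetal calf serum. Antibodies to CD3 and CD28 were present until day 3 and IL-2 at 30 IU/mL from then on. Th2-Th1 cells were Th2 cells washed and kept for 2 more days with IL-12 at 10 ng/mL and antibody against IL-4, and gave 3 libraries labelled Setdb1 KO and 2 WT libraries. Their medium also held 10% serum and IL-2 at 30 IU/mL. Chromatin came from naive and Th2 cells of both labels (H3K9me3), from Th2 cells of both labels (H3K27ac and ATAC-seq) and, for H3K9me3, also from spleen CD4 T cells of Suv39h1-/- mice after 6 days of Th2 culture. The sources used here do not state how, or in which cells, the Setdb1 allele was deleted. Whether replicates are different mice or cultures is not labelled either, and p-values then reflect library-to-library spread, which may be technical. Bulk RNA cannot tell fewer cells of a type from less RNA per cell.

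Several facts of the whole series bear on the values below. Depth here means the reads counted in genes, as recovered from the normalised values, since the sequenced totals were not used. It was 36260766 to 44718627 reads in the Th2 libraries labelled Setdb1 KO, against 10140907 to 13257516 in Th2 WT. It was 37208280 to 37603455 in Th2-Th1 libraries labelled Setdb1 KO, against 18900625 and 19840621 in Th2-Th1 WT. Naive libraries held 12774598 to 15335381 reads where labelled Setdb1 KO and 10019187 to 18510982 in WT. Setdb1 RNA went with its label in naive cells, averaging 1006 where labelled Setdb1 KO and 1310.3 in WT (log2 difference -0.38 ± 0.11 SE, limma adjusted p = 0.0319). It went against the label in cultured cells, with 8485 in Th2 libraries labelled Setdb1 KO against 822.6 in Th2 WT (3.37 ± 0.12, limma adjusted p = 7.22e-14) and 6244 in Th2-Th1 libraries labelled Setdb1 KO against 1603 in Th2-Th1 WT (1.95 ± 0.13, limma adjusted p = 3.04e-09). Every direction below therefore rests on the label. Naive WT replicates 1 and 3 and naive Setdb1 KO replicate 2 held 21277, 25556 and 22210 detected genes at equal depth, above the 15128 to 18640 of the other naive libraries. T cell markers were present in every library, while myeloid markers were uneven. Lyz2 and Csf1r averaged 0.598 and 4.5 in Th2 libraries labelled Setdb1 KO, against 0 and 3.36 in Th2 WT, and Itgam and Clec7a were low too. Fcgr3 and Cd68 averaged 323 and 61.5 in Th2 libraries labelled Setdb1 KO, against 349 and 114.5 in Th2 WT. The summed list of 7 myeloid genes was 5100 to 5860 in Th2 libraries labelled Setdb1 KO, against 1630 to 2080 in Th2 WT, with Emr1 averaging 5144 against 1442.

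Culture as Th2 cells raised nearly the whole sterol pathway. Against naive cells, 14 of 15 sterol synthesis genes were called higher in Th2 WT libraries (median log2 difference 2.13) and 13 of 15 in Th2 libraries labelled Setdb1 KO (median 1.53, Tm7sf2 and Dhcr7 not called), with none lower. Among the 4 efflux and LXR genes, Abca1, Abcg1 and Mylip were called lower at either label, and Lpcat3 was higher with the Setdb1 KO label (1.17 ± 0.14) and not called in WT. Over the 34 genes, 25 were higher and 6 lower in WT, which is 91.2% of them beside 65.9% of all 17254 genes tested (32.8% higher and 33.1% lower). With the Setdb1 KO label, 26 were higher and 4 lower, 88.2% beside 53.5% (28.3% and 25.2%). The median over the 34 genes was 1.47 in WT and 1.46 with the Setdb1 KO label, whereas over all genes it was -0.14 and -0.034. Fads2 passed the filter only through the cultured libraries and so had to differ; over the other 33 genes, 24 were higher and 6 lower in WT (median 1.36), and 25 and 4 with the Setdb1 KO label (median 1.45). A gene is called at an adjusted p under 0.05 by limma with Benjamini-Hochberg adjustment over all genes tested, and values are the authors' normalised read counts. Throughout, ± after a mean value is the SD over libraries, and ± after a log2 difference or interaction is the SE from limma. The heat map of members by library shows both blocks. The summed level of 6 cycling markers moved with culture too. It was 104000 to 125000 in Th2 against 6990 to 8700 in naive libraries labelled Setdb1 KO, and 53400 to 55800 in Th2 WT against 440 to 1130 in naive WT, and its part in these changes was not tested.

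**Figure D1:**
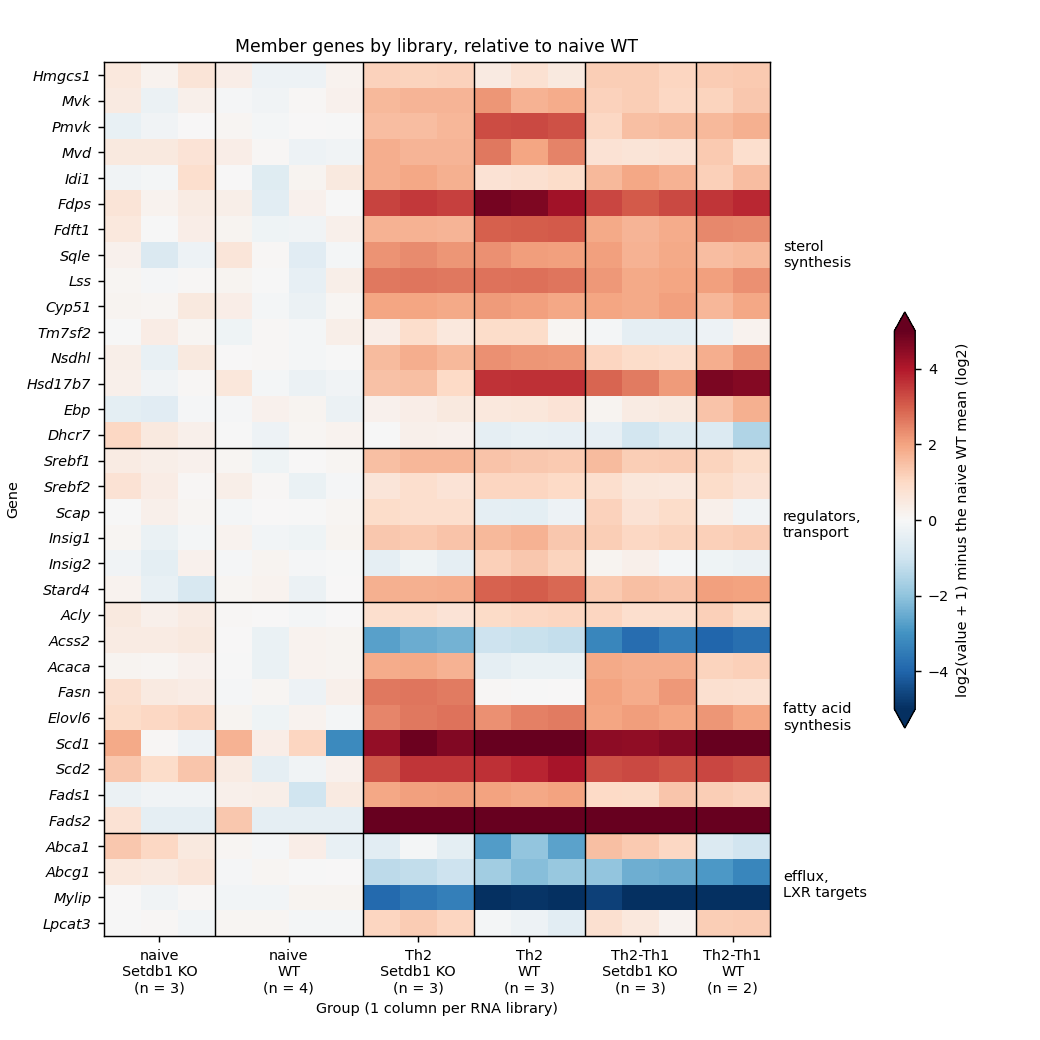
Each row is 1 of the 34 genes and each column 1 RNA library; colour is log2(value + 1) minus the mean of the 4 naive WT libraries, with colours saturated beyond 5 in either direction. Most sterol synthesis rows and the desaturase rows turn red in cultured libraries, with Fads2, Scd1 and Fdps among the strongest, while Mylip and Acss2 turn blue. Dhcr7 lies below the naive WT mean in Th2 WT and all Th2-Th1 libraries, but not throughout the Th2 libraries labelled Setdb1 KO. Tm7sf2 lies below it in the Th2-Th1 libraries labelled Setdb1 KO.

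Fdps makes farnesyl diphosphate, the branch point between sterols and other isoprenoids. Its value was 3783, 3427 and 2482 in the Th2 WT libraries, against 167, 94.5, 158 and 135 in the naive WT libraries. The groups lay far apart, at a log2 difference of 4.54 ± 0.18, limma adjusted p = 2.83e-14, and with the Setdb1 KO label the difference was 3.04 ± 0.19. Hsd17b7, a reductase that acts while the sterol ring loses its methyl groups, had 2408, 2457 and 2437 in the Th2 WT libraries, against 286, 184, 159 and 172 in the naive WT libraries. That difference was 3.64 ± 0.19, limma adjusted p = 3.13e-12. Pmvk and Fdft1, phosphomevalonate kinase and squalene synthase, followed at 3.25 and 3.03 in WT. Lss, Mvd, Nsdhl, Sqle, Cyp51 and Mvk, which encode lanosterol synthase, mevalonate diphosphate decarboxylase, a sterol dehydrogenase, squalene epoxidase, lanosterol demethylase and mevalonate kinase, were higher by 2.71, 2.38, 2.22, 2.13, 2.03 and 1.93.

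The smallest calls in WT were for Idi1, isopentenyl diphosphate isomerase (0.82), Tm7sf2, a sterol reductase (0.64), Ebp, a sterol isomerase (0.60), and Hmgcs1, which makes HMG-CoA at the head of the pathway (0.57). Tm7sf2 lost its call without the 3 naive libraries that stood apart (0.48, limma adjusted p = 0.156). Dhcr7, the reductase of the last step, was the exception among the sterol enzymes, with 137, 147 and 142 in the Th2 WT libraries, against 188, 160.3, 203 and 213 in the naive WT libraries. Its groups did not overlap, but the log2 difference of -0.42 ± 0.22 was not called (limma adjusted p = 0.104).

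Regulators followed the enzymes in part. Srebf1, Srebf2, Insig1, Insig2 and Stard4 were higher in Th2 WT than in naive WT libraries, by 1.36, 1.03, 1.57, 1.22 and 2.95. Srebf1 and Srebf2 encode the SREBPs, and Stard4 encodes a carrier of cholesterol between membranes. Scap was the 1 regulator called lower (-0.39 ± 0.12, limma adjusted p = 0.00685). With the Setdb1 KO label 4 of the 6 were called higher, and Srebf2 (0.33) and Insig2 (-0.23) were not called.

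Desaturases were among the genes that culture raised. Fads2 puts a double bond into polyunsaturated fatty acids. It had 613, 833 and 746 in the Th2 libraries labelled Setdb1 KO and 782, 1182 and 846 in the Th2 WT libraries. In naive cells 1 read in all was counted over 3 libraries labelled Setdb1 KO and 2 reads over 4 WT libraries. The ratio of read rates was 1740 (95% interval 312 to 68800) with the Setdb1 KO label and 1490 (412 to 12300) in WT, by an exact interval that covers counting error only; it describes the reads and is no test, since cultured libraries alone brought Fads2 past the filter. Scd1, which makes monounsaturated fatty acids, had 1766, 1772 and 1848 in the Th2 WT libraries, against 86.1, 31.5, 54.3 and 1.89 in the naive WT libraries. Its naive WT libraries spread from 1.89 to 86.1, and every Th2 WT library lay above them (6.11 ± 0.74, limma adjusted p = 4.6e-07). Scd2, its neighbour and close paralog, was higher by 3.85, Elovl6, which lengthens fatty acids, by 2.48, and Fads1, the partner desaturase of Fads2, by 1.98. Reads shared between such paralogs could have been split or dropped in counting.

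The enzymes that supply and use acetyl-CoA did not move as a block. Acly, which frees acetyl-CoA from citrate, was higher by 1.01 in WT, whereas Acss2, which makes it from acetate, was lower, with a log2 difference of -1.11 ± 0.15. Acaca, the carboxylase that forms malonyl-CoA, had 278, 304 and 302 in the Th2 WT libraries, against 379, 303, 429 and 422 in the naive WT libraries, a log2 difference of -0.37 ± 0.12 (limma adjusted p = 0.00903) with overlapping groups. It was not called without the 3 naive libraries that stood apart (-0.28, limma adjusted p = 0.062). Fasn, the fatty acid synthase itself, had 2220, 2084 and 2145 in the Th2 WT libraries, against 2037, 2273, 1771 and 2531 in the naive WT libraries. These groups overlapped and their difference was 0.0099 ± 0.12, limma adjusted p = 0.946.

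Among LXR targets, Mylip encodes a ubiquitin ligase that removes lipoprotein receptors. Its value was 30.2, 57.5 and 34.9 in the Th2 WT libraries, against 1598, 1586, 1952 and 1953 in the naive WT libraries. Th2 WT libraries stood far below all naive libraries (-5.45 ± 0.22, limma adjusted p = 3.91e-14). The cholesterol exporters Abca1 and Abcg1 were lower, with log2 differences of -2.49 ± 0.22 and -1.92 ± 0.13. Lpcat3, a lysophospholipid acyltransferase, was not called in WT (-0.30 ± 0.14, limma adjusted p = 0.0613), but was with TMM scaling (-0.33, limma adjusted p = 0.0406).

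The promoters of these genes were read for motifs tied to the pathway, since so many of them moved together. Promoter sequence from RefSeq (GRCm38.p6) matched 26 of the 34 genes. The box CCAAT, which NF-Y binds, occurred on either strand within 250 bases before a listed start in 20 of 26 genes (76.9%), beside 37.5% of 27025 genes. Those 27025 were all genes with a listed promoter, expressed here or not, whereas all 26 passed the filter on low values. A comparison with tested genes alone was not made. The core TCACNCCA of the sterol regulatory element occurred in 2 of 26 (7.69%), Hmgcs1 and Srebf2, beside 4.2% of genes. The promoters of 6 genes are printed here, 250 bases each and 5′ to 3′ in the direction of the gene, with both motifs in capitals. They carry the pathway motif (Hmgcs1, Srebf2) or belong to genes whose values differed most between the labels in Th2 cells or ran against their group (Hsd17b7, Idi1, Fasn, Lpcat3). No NF-Y box overlapped a TCACNCCA match, but in Fasn a pair of boxes on opposite strands overlap each other. They span chr13:119690101-119690350 (plus strand), chr15:82147019-82147268 (plus strand), chr1:169969206-169969455 (minus strand), chr13:8885356-8885605 (plus strand), chr11:120824548-120824797 (minus strand) and chr6:124662854-124663103 (plus strand).
Hmgcs1: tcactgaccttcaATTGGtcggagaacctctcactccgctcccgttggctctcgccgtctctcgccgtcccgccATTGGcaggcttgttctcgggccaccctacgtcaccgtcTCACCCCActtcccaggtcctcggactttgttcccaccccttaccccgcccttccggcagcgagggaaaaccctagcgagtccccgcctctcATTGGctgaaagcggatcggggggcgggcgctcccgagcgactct
Srebf2: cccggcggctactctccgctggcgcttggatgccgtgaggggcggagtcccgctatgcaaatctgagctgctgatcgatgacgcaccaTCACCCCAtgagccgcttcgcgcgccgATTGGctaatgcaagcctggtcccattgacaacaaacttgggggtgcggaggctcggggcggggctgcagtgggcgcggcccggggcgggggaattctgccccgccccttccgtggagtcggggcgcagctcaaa
Hsd17b7: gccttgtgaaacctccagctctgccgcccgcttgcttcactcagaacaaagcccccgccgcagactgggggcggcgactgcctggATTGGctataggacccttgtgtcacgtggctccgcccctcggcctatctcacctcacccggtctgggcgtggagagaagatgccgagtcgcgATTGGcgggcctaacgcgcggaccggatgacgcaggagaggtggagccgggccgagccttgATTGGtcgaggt
Idi1: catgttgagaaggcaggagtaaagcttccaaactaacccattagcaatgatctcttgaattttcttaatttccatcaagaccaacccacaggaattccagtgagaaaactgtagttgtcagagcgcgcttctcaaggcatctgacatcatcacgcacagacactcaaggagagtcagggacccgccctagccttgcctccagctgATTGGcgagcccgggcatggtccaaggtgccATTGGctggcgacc
Fasn: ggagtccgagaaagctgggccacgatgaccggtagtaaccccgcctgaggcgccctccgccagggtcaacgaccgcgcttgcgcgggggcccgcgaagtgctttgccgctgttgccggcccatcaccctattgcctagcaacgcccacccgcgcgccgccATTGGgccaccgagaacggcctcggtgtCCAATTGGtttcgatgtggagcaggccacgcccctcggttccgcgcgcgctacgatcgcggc
Lpcat3: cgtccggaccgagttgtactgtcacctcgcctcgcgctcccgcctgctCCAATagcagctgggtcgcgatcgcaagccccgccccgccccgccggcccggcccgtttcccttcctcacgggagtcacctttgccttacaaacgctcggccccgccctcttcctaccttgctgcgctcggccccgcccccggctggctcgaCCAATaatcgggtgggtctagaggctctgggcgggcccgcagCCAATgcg
Matches are letters in a window and not shown sites.

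In naive cells a few fatty acid, efflux and sterol genes were higher with the Setdb1 KO label, among them Scd2, Elovl6 and Abca1. Of the 34 genes, 8 were called higher in libraries labelled Setdb1 KO and none lower, 23.5% of them beside 10.9% of all genes tested (7.43% higher and 3.45% lower). Fatty acid synthesis gave 4 of 9, efflux 2 of 4, sterol synthesis 2 of 15 and the regulators none of 6. Median log2 differences were 0.43, 0.25, 0.14 and 0.0048 in that order, against -0.0047 over all genes. Cycling markers moved with the label here: their summed level was 6990 to 8700 in naive libraries labelled Setdb1 KO, against 440 to 1130 in naive WT, and its part in the result was not tested.

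Scd2 had 3300.5, 2445 and 3337 in the naive libraries labelled Setdb1 KO, against 1680.2, 942, 1142 and 1480.4 in the naive WT libraries. The groups did not overlap and differed by 1.23 ± 0.17, limma adjusted p = 7.18e-05. Elovl6 had 684, 751 and 809 in the naive libraries labelled Setdb1 KO, against 403, 311, 413 and 339 in the naive WT libraries, again without overlap (1.03 ± 0.12, limma adjusted p = 6.86e-06). These 2 genes kept their call under every alternative run. Abca1 had 2054, 1636 and 1116 in the naive libraries labelled Setdb1 KO, against 849.5, 774, 1005 and 608 in the naive WT libraries. Naive Setdb1 KO replicate 1 was the highest of them, and without it the log2 difference of 0.96 ± 0.22 (limma adjusted p = 0.00711) became 0.76 (limma adjusted p = 0.065).

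The other calls were Fasn (0.54 ± 0.12, limma adjusted p = 0.00437), Acly (0.38 ± 0.087, limma adjusted p = 0.00738), Abcg1 (0.52 ± 0.13, limma adjusted p = 0.014), Mvd (0.56 ± 0.17, limma adjusted p = 0.0366) and Hmgcs1 (0.44 ± 0.13, limma adjusted p = 0.0395), each lost under at least 2 alternatives. Without naive Setdb1 KO replicate 1, 4 of the 34 genes were called in place of 8, Scd2, Elovl6 and Fasn higher and Stard4 lower (-0.60, limma adjusted p = 0.0102). Without the 3 naive libraries that stood apart, 5 were higher (Hmgcs1, Fdps, Acly, Elovl6 and Scd2) and 1 lower (Fads1), and no efflux gene was called. Dhcr7 had 388, 269 and 226 in the naive libraries labelled Setdb1 KO, against 188, 160.3, 203 and 213 in the naive WT libraries, the widest difference among sterol enzymes and without overlap, and was not called (0.59 ± 0.22, limma adjusted p = 0.0996). Srebf2, the regulator with the widest difference, had 2591, 2066 and 1638 in the naive libraries labelled Setdb1 KO, against 1957, 1636, 1267 and 1522 in the naive WT libraries, with overlap and no call (0.39 ± 0.14, limma adjusted p = 0.0992). Stard4 had 488, 333 and 244 in the naive libraries labelled Setdb1 KO, against 468, 486, 353 and 432 in the naive WT libraries and overlapped as well (-0.34 ± 0.16, limma adjusted p = 0.216).

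In Th2 cells the label split the pathways into genes that were higher and genes that were lower. Libraries labelled Setdb1 KO held much more Fasn, Acaca, Abca1, Mylip, Lpcat3 and Scap RNA, and much less Hsd17b7, Pmvk, Insig2, Acss2, Fdft1, Stard4 and Fdps RNA. In all 9 genes were called higher and 10 lower, 55.9% of the 34 beside 54.0% of all genes tested (29.3% higher and 24.7% lower), so the share called was near that of any gene. Sterol synthesis gave 2 higher and 6 lower of 15 (median -0.24), regulators 1 and 2 of 6 (-0.26), fatty acid synthesis 2 and 2 of 9 (-0.22) and efflux 4 higher of 4 (1.63), against a median of 0.13 over all genes. With TMM scaling the all-gene median shifted by 0.11 and the medians of the 4 groups moved to -0.11, -0.13, -0.088 and 1.77. Cycling markers summed to 104000 to 125000 in Th2 libraries labelled Setdb1 KO, against 53400 to 55800 in Th2 WT. Th2 markers, a list of 4, summed to 3760 to 5320 in Th2 libraries labelled Setdb1 KO, against 8990 to 9310 in Th2 WT. The part of these, of the myeloid list and of depth in the result was not tested. The plot of label differences in the 3 conditions gives every gene.

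**Figure D2:**
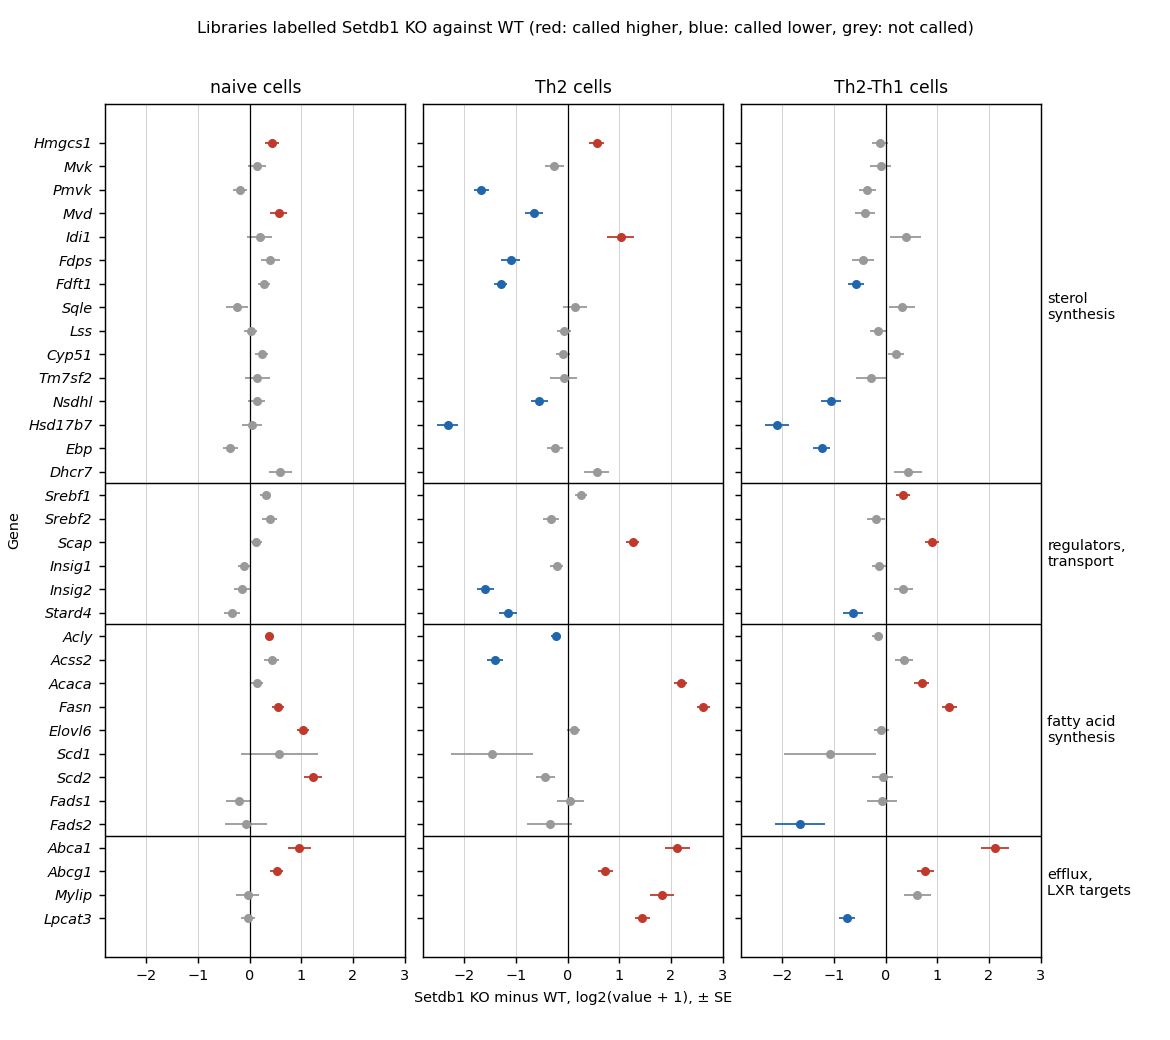
Points are log2 differences, libraries labelled Setdb1 KO minus WT, with standard errors from limma, for the 34 genes in naive, Th2 and Th2-Th1 cells; red is called higher, blue called lower and grey not called. Fasn and Acaca lie at 2.62 and 2.19 in Th2 cells and Hsd17b7 at -2.32, while most naive differences lie within 1 of 0.

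Fasn and Acaca, the consecutive enzymes that build the saturated chain, had the widest differences among fatty acid genes. Fasn had 13122, 13574 and 13049.9 in the Th2 libraries labelled Setdb1 KO, against 2220, 2084 and 2145 in the Th2 WT libraries. The groups were far apart (2.62 ± 0.12, limma adjusted p = 3.12e-12). Acaca had 1361, 1401 and 1286 in the Th2 libraries labelled Setdb1 KO, against 278, 304 and 302 in the Th2 WT libraries, also without overlap (2.19 ± 0.12, limma adjusted p = 2.86e-11). Whether the difference between labels changed with Th2 culture was tested as an interaction, and it was called for both (2.08 ± 0.17, limma adjusted p = 1.72e-08 for Fasn and 2.04 ± 0.17, 1.97e-08 for Acaca). Acss2 had 191, 223 and 242 in the Th2 libraries labelled Setdb1 KO, against 607, 579 and 549 in the Th2 WT libraries, lower without overlap (-1.40 ± 0.16, limma adjusted p = 3.19e-07). Acly was called lower at -0.22 ± 0.093, limma adjusted p = 0.0491, but with TMM scaling the value was -0.088 and the limma adjusted p 0.469.

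Elovl6, Fads1, Fads2, Scd1 and Scd2, which modify the chain, were not called between the labels in Th2 cells, but the calls of Scd1 and Scd2 depended on the processing. Elovl6 and Fads1 overlapped, at 0.12 ± 0.13 and 0.052 ± 0.26 on the log2 scale. Scd2 averaged 13852 ± 2480 in the Th2 libraries labelled Setdb1 KO and 18609.5 ± 3045 in the Th2 WT libraries (-0.43 ± 0.18, limma adjusted p = 0.0548). Scd1 had 543, 781 and 647 in the Th2 libraries labelled Setdb1 KO, against 1766, 1772 and 1848 in the Th2 WT libraries. Its groups did not overlap, but the difference was not called (-1.46 ± 0.79, limma adjusted p = 0.128). Scd1 was called lower with a pseudocount of 5 (-1.46, limma adjusted p = 0.0445), by edgeR (-1.31, adjusted p = 0.0104) and with the Th2 libraries fitted alone (-1.46, limma adjusted p = 0.000486). Scd2 was called with a pseudocount of 5 (-0.43, limma adjusted p = 0.0476) and by DESeq2 (-0.43, adjusted p = 0.0436). Fads2 overlapped between the labels (-0.35 ± 0.43, limma adjusted p = 0.538).

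Among sterol enzymes the widest difference was in Hsd17b7, with 540.4, 552 and 389 in the Th2 libraries labelled Setdb1 KO, against 2408, 2457 and 2437 in the Th2 WT libraries. No library overlapped (-2.32 ± 0.21, limma adjusted p = 1.72e-08). Pmvk had 668, 672 and 736 in the Th2 libraries labelled Setdb1 KO, against 2236, 2277 and 2098 in the Th2 WT libraries, likewise without overlap (-1.67 ± 0.14, limma adjusted p = 8.72e-09). Fdft1 had 1563, 1554 and 1529.8 in the Th2 libraries labelled Setdb1 KO, against 3694, 3789 and 3917 in the Th2 WT libraries and differed by -1.29 ± 0.13, limma adjusted p = 8.72e-08. Fdps, Mvd and Nsdhl were lower too, with log2 differences of -1.10 ± 0.19, -0.65 ± 0.18 and -0.54 ± 0.17. 

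Other steps of the same pathway ran against these or were not called. Idi1, between Mvd and Fdps in the pathway, had 411, 450 and 394 in the Th2 libraries labelled Setdb1 KO, against 189.5, 202 and 222 in the Th2 WT libraries, and every library labelled Setdb1 KO was higher (1.03 ± 0.26, limma adjusted p = 0.0026). Hmgcs1 was higher as well (0.56 ± 0.14, limma adjusted p = 0.00243). Sqle, Lss, Cyp51 and Tm7sf2 overlapped between the labels, with log2 differences of 0.14, -0.066, -0.085 and -0.076. Mvk, Ebp and Dhcr7 stood at -0.26, -0.24 and 0.56 without a call. Dhcr7 was called higher under 5 alternatives, among them TMM scaling (0.70, limma adjusted p = 0.0197), edgeR (0.71, adjusted p = 0.018) and the Th2 libraries alone (0.56, limma adjusted p = 0.0105).

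Insig2 and Scap were called in opposite directions between the labels. Insig2, a retention protein, had 261, 309.8 and 257 in the Th2 libraries labelled Setdb1 KO, against 804, 904 and 781 in the Th2 WT libraries. The groups were far apart (-1.59 ± 0.16, limma adjusted p = 8.14e-08). Scap, the escort, had 1604, 1539 and 1538 in the Th2 libraries labelled Setdb1 KO, against 627, 603 and 724 in the Th2 WT libraries, without overlap in the other direction (1.26 ± 0.13, limma adjusted p = 7.51e-08). Stard4 averaged 1493 ± 12.3 in the Th2 libraries labelled Setdb1 KO and 3334 ± 182 in the Th2 WT libraries (-1.16 ± 0.17, limma adjusted p = 1.19e-05). Insig1, Srebf1 and Srebf2 were not called, at -0.21, 0.26 and -0.32. Srebf1 was called higher with TMM scaling (0.39, limma adjusted p = 0.00762) and by edgeR (0.39, adjusted p = 0.00915). With the Th2 libraries fitted alone Srebf1 was called higher (0.26, limma adjusted p = 0.0188) and Srebf2 lower (-0.32, limma adjusted p = 0.0164).

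All 4 efflux and LXR genes were higher with the Setdb1 KO label in Th2 cells, where 29.3% of all genes were. Abca1 had 557, 744 and 572 in the Th2 libraries labelled Setdb1 KO, against 113, 204 and 122 in the Th2 WT libraries. The lowest library labelled Setdb1 KO exceeded the highest WT library (2.12 ± 0.24, limma adjusted p = 3.03e-07). Mylip had 118, 145 and 164 in the Th2 libraries labelled Setdb1 KO, against 30.2, 57.5 and 34.9 in the Th2 WT libraries (1.82 ± 0.23, limma adjusted p = 1.94e-06). Lpcat3 had 1019, 1164 and 1025 in the Th2 libraries labelled Setdb1 KO, against 446, 401 and 337 in the Th2 WT libraries (1.44 ± 0.14, limma adjusted p = 7.79e-08). Abcg1 averaged 1008 ± 109 in the Th2 libraries labelled Setdb1 KO and 608 ± 78.4 in the Th2 WT libraries (0.73 ± 0.14, limma adjusted p = 0.000214). Values of 12 genes in every library stand in the panel plot.

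**Figure D3:**
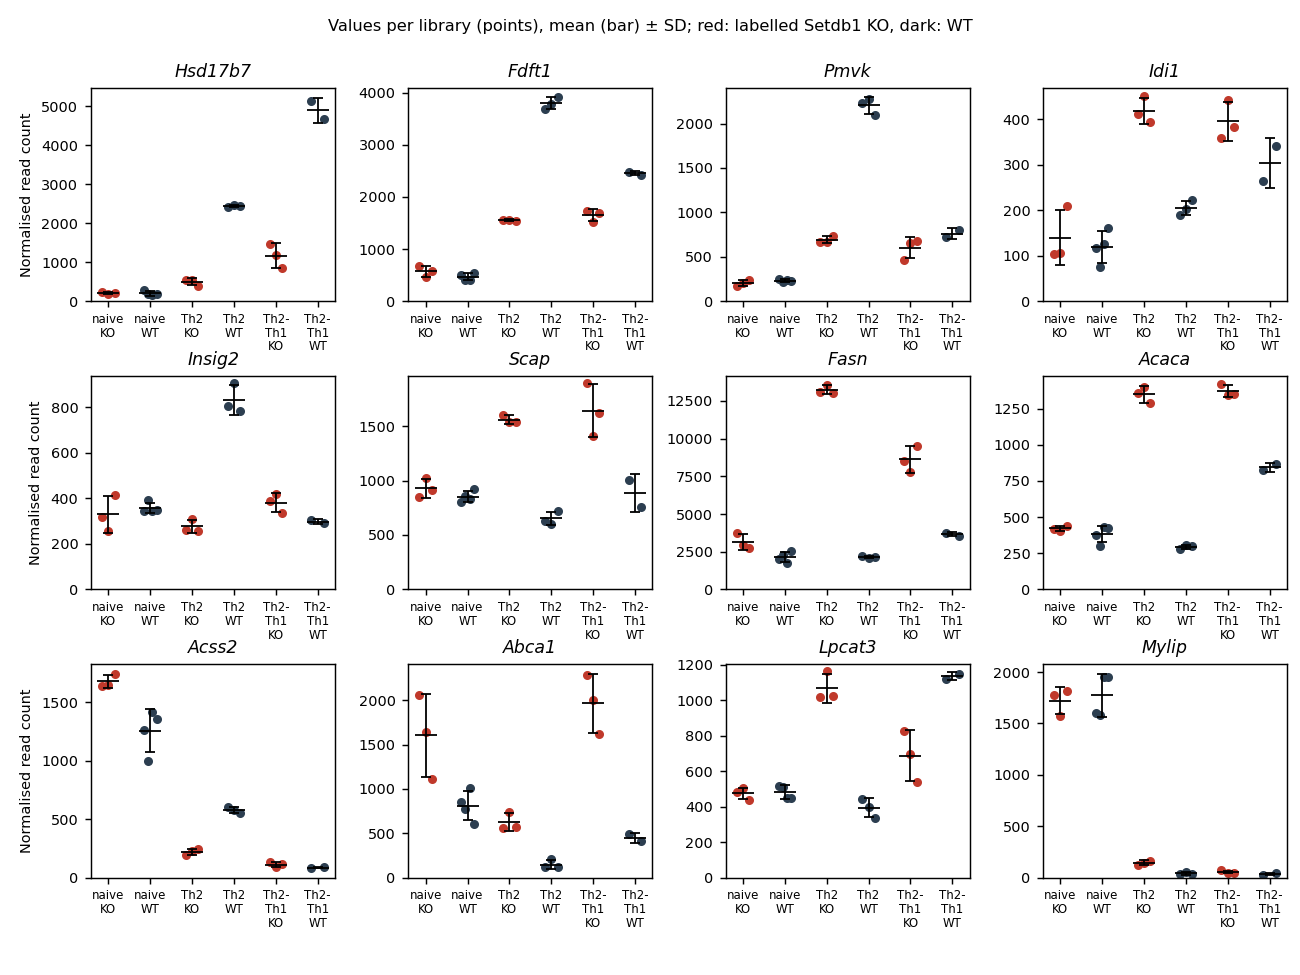
Each panel plots the normalised read counts of 1 gene in every library (points) with mean and SD, for 6 groups from naive to Th2-Th1, libraries labelled Setdb1 KO in red left of WT in dark. Fasn sits between 13049.9 and 13574 in Th2 libraries labelled Setdb1 KO, above all other groups, and Hsd17b7 is highest in Th2-Th1 WT, at 4659.8 and 5123.

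The interaction with Th2 culture, which shares its libraries with the comparisons above, was called for 19 of the 34 genes, 6 in favour of the Setdb1 KO label and 13 against (55.9% beside 41.3% of all genes, 20.7% positive and 20.6% negative). The 6 were Fasn, Acaca, Mylip, Lpcat3, Abca1 and Scap. Among the 13, Hsd17b7 (-2.36 ± 0.29), Acss2 (-1.83 ± 0.21), Scd2 (-1.66 ± 0.25), Fdft1 (-1.57 ± 0.18), Fdps (-1.50 ± 0.26), Pmvk (-1.49 ± 0.20) and Insig2 (-1.44 ± 0.22) differed most. Scap and Acaca were called in opposite directions by culture at the labels: Scap was higher by 0.75 in Th2 libraries labelled Setdb1 KO than in naive ones and Acaca by 1.68, whereas the WT differences were -0.39 and -0.37. TMM scaling moved the median interaction of all genes by 0.11, and Nsdhl (-0.56, limma adjusted p = 0.0581) then lost its call, while Idi1 (0.96, limma adjusted p = 0.0355) gained one. Without the 3 naive libraries that stood apart, Abca1 (0.98, limma adjusted p = 0.0811) and Stard4 (-0.75, limma adjusted p = 0.0591) lost theirs, and Scd1 (-3.71, limma adjusted p = 0.0199) was called. The plot of changes with culture sets both labels side by side.

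**Figure D4:**
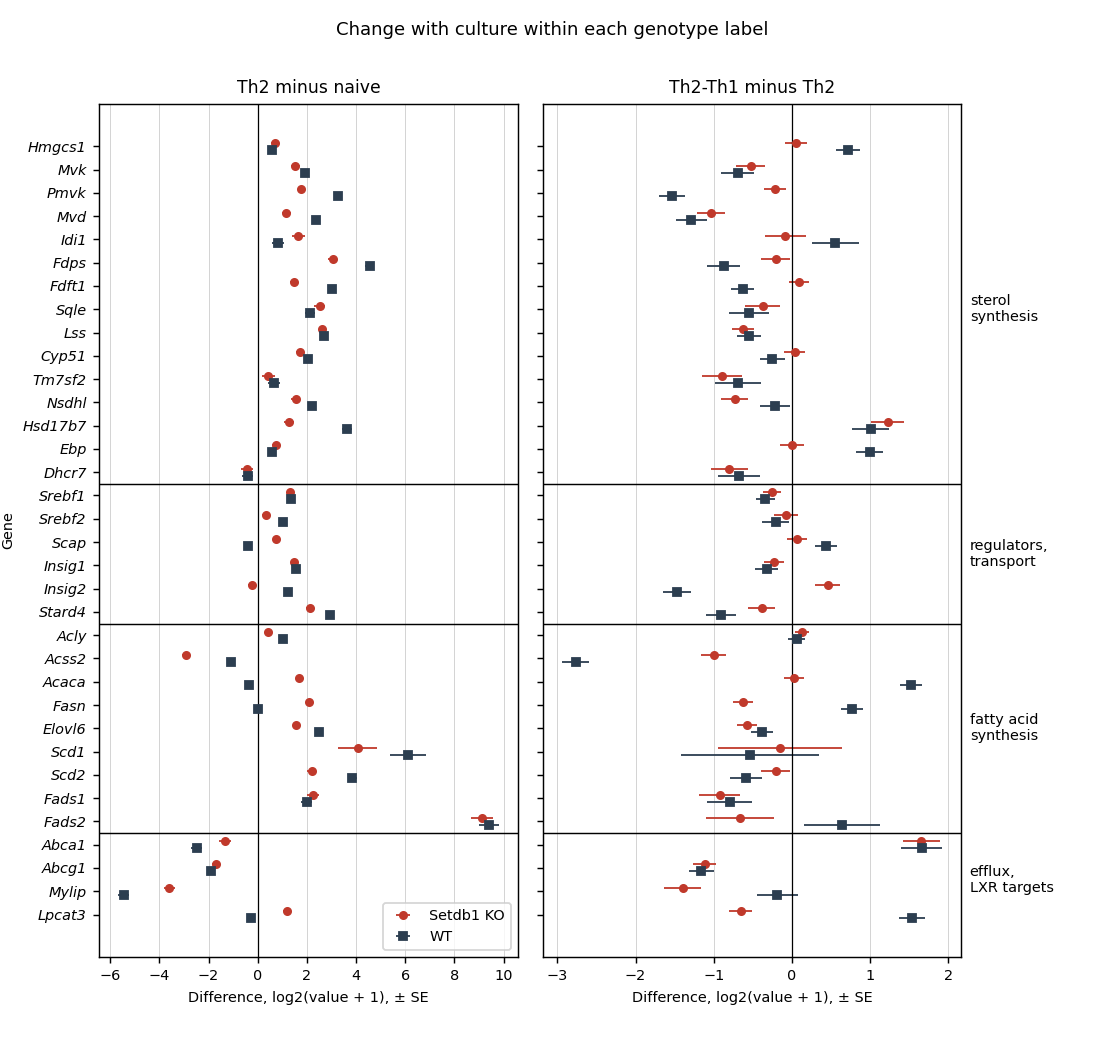
Points are log2 differences with standard errors from limma for the 34 genes, Th2 minus naive on the left and Th2-Th1 minus Th2 on the right, for libraries labelled Setdb1 KO (red circles) and WT (dark squares). On the left the labels stand apart for Hsd17b7 (interaction -2.36), Fasn (2.08) and Acaca (2.04), and on the right for Lpcat3 (-2.19), Insig2 (1.93) and Acss2 (1.76).

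More of these genes were called lower than higher in Th2-Th1 cells than in Th2 cells. Th2-Th1 cells had a wash, 2 more days of culture, IL-12 and antibody against IL-4 together, and these cannot be told apart. In WT, 8 of the 34 were called higher and 15 lower in Th2-Th1 than in Th2 libraries (67.6% beside 49.8% of all genes, 25.8% higher and 24.0% lower), and with the Setdb1 KO label 3 and 13 (47.1% beside 26.7%, 13.0% and 13.6%). Mvd, Mvk, Lss and Dhcr7 were lower at both labels, as were Acss2, Elovl6, Fads1 and Abcg1, while Abca1 and Hsd17b7 were higher at both. Abca1 had 489 and 410.1 in the Th2-Th1 WT libraries, against 113, 204 and 122 in the Th2 WT libraries, without overlap (1.66 ± 0.26, limma adjusted p = 3.12e-05), and gained 1.65 with the Setdb1 KO label. Acss2 had 79.1 and 89.5 in the Th2-Th1 WT libraries, against 607, 579 and 549 in the Th2 WT libraries (-2.77 ± 0.18, limma adjusted p = 2.26e-10). Dhcr7 and Elovl6 in WT, and Mvk and Insig2 with the Setdb1 KO label, lost their calls under at least 6 alternatives. In WT, Fads1, Srebf1, Scd2 and Scap lost theirs under 5, 4, 4 and 3. Mvk and Lss lost theirs in WT without Th2-Th1 WT replicate 1, which leaves 1 library in that group. With the Setdb1 KO label, Dhcr7, Tm7sf2 and Fads1 lost theirs under 3, 2 and 1. With no filter on low values, 8 were called higher and 11 lower in WT, and 2 and 12 with the Setdb1 KO label. Marker lists moved with the switch. Cycling markers summed to 48600 to 72000 in Th2-Th1 against 104000 to 125000 in Th2 libraries labelled Setdb1 KO, and to 68400 to 71300 in Th2-Th1 WT against 53400 to 55800 in Th2 WT. The myeloid list summed to 230 to 352 in Th2-Th1 against 5100 to 5860 in Th2 libraries labelled Setdb1 KO, and to 125 to 259 in Th2-Th1 WT against 1630 to 2080 in Th2 WT. Their part in these changes was not tested.

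The change between labels during the switch was tested as an interaction and called for 10 genes, 4 with a positive sign and 6 with a negative sign (29.4% beside 35.5% of all genes, 17.3% positive and 18.2% negative). Lpcat3 changed most (-2.19 ± 0.22, limma adjusted p = 2.97e-07), being higher by 1.53 in Th2-Th1 WT than in Th2 WT libraries and lower with the Setdb1 KO label (-0.65 ± 0.14). Insig2 had 305 and 290.4 in the Th2-Th1 WT libraries, against 804, 904 and 781 in the Th2 WT libraries. It was 387, 419 and 334 in the Th2-Th1 libraries labelled Setdb1 KO, and the interaction was 1.93 ± 0.24, limma adjusted p = 3.92e-06. Acss2 (1.76 ± 0.24), Pmvk (1.32 ± 0.21) and Fdft1 (0.72 ± 0.20) had positive interactions, and Acaca (-1.49 ± 0.19), Fasn (-1.39 ± 0.19), Mylip (-1.21 ± 0.35), Ebp (-0.99 ± 0.23) and Hmgcs1 (-0.66 ± 0.21) negative ones. Fads2 was not called, but was with a pseudocount of 5 (-1.30, limma adjusted p = 0.00615), by edgeR (-1.35, adjusted p = 0.000791) and by DESeq2 (-1.29, adjusted p = 5.34e-05). It was also called with only the groups compared fitted (-1.31, limma adjusted p = 0.00306). In that fit Idi1, Fdps, Nsdhl and Stard4 gained a call and Mylip lost its own. Hmgcs1 (-0.64, limma adjusted p = 0.0696) and Mylip (-0.94, 0.0806) lost their calls without Th2-Th1 WT replicate 2.

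In Th2-Th1 cells 6 genes were called higher and 7 lower in libraries labelled Setdb1 KO than in WT, 38.2% of the 34 beside 33.7% of all genes (17.6% higher and 16.1% lower). Sterol synthesis gave 4 lower and none higher of 15 (median -0.28), regulators 2 higher and 1 lower of 6 (0.11), fatty acid synthesis 2 and 1 of 9 and efflux 2 and 1 of 4 (0.69), against 0.087 over all genes. The fatty acid median was -0.076 and with TMM scaling 0.0059. Of the genes called in both Th2 and Th2-Th1 cells, 9 had the same sign (Fasn, Acaca, Abca1, Abcg1 and Scap higher, Hsd17b7, Fdft1, Nsdhl and Stard4 lower). Lpcat3 had the opposite sign. Of the 4015 genes called in both over the whole table, 3107 (77.4%) had the same sign, and a difference of the 10 from these genes was not tested. Of the 10, the Th2-Th1 calls of Lpcat3, Abcg1 and Stard4 each depended on the processing or on 1 WT library, as given below. The 2 comparisons share no library. Th2-Th1 cells were made from Th2 cells, however, and whether both came from the same mice or cultures is not labelled. Summed cycling markers overlapped here, at 48600 to 72000 with the Setdb1 KO label and 68400 to 71300 in WT. Lineage markers did not: 4 Th2 genes summed to 30400 to 69200 with the Setdb1 KO label, against 358000 to 408000 in WT, and 3 Th1 genes summed to 13800 to 25300 with the Setdb1 KO label, against 596 to 788 in WT. Their part in the result was not tested.

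Hsd17b7 had 1468, 1195 and 845 in the Th2-Th1 libraries labelled Setdb1 KO, against 5123 and 4659.8 in the Th2-Th1 WT libraries. The groups stayed apart (-2.10 ± 0.23, limma adjusted p = 1.36e-06). Ebp, which was not called in Th2 cells, had 1289, 1571 and 1669.7 in the Th2-Th1 libraries labelled Setdb1 KO, against 3121 and 4009 in the Th2-Th1 WT libraries (-1.24 ± 0.17, limma adjusted p = 1.72e-05). Nsdhl averaged 542 ± 43.3 in the Th2-Th1 libraries labelled Setdb1 KO and 1139.6 ± 227 in the Th2-Th1 WT libraries (-1.06 ± 0.19, limma adjusted p = 0.000249). Pmvk, Fdps and Mvd, lower in Th2 cells, were at -0.35, -0.44 and -0.40 without a call, and Idi1 and Hmgcs1 at 0.39 and -0.10.

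Scap, with 1896, 1411 and 1623 in the Th2-Th1 libraries labelled Setdb1 KO, against 1009 and 759.8 in the Th2-Th1 WT libraries, was higher (0.90 ± 0.14, limma adjusted p = 6.66e-05). Srebf1 was called at 0.34 ± 0.13, limma adjusted p = 0.0452, a call lost without Th2-Th1 WT replicate 2 (0.23, limma adjusted p = 0.341) or Th2-Th1 Setdb1 KO replicate 1 (0.23, 0.195). Stard4 was lower (-0.63 ± 0.19, limma adjusted p = 0.0154), but not when either Th2-Th1 WT library was left out (-0.61, limma adjusted p = 0.0836, and -0.65, 0.0731).

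Fads2 had 488, 399.7 and 487 in the Th2-Th1 libraries labelled Setdb1 KO, against 1507 and 1372 in the Th2-Th1 WT libraries. Both WT libraries lay above every library labelled Setdb1 KO (-1.65 ± 0.49, limma adjusted p = 0.0124), and without either WT library the limma adjusted p was 0.0813 or 0.0646. Fasn had 8551, 7781 and 9546 in the Th2-Th1 libraries labelled Setdb1 KO, against 3738 and 3572 in the Th2-Th1 WT libraries (1.23 ± 0.14, limma adjusted p = 1.61e-06). Abca1 had 2279, 1999 and 1618 in the Th2-Th1 libraries labelled Setdb1 KO, against 489 and 410.1 in the Th2-Th1 WT libraries (2.12 ± 0.26, limma adjusted p = 5.27e-06). Lpcat3 had 829, 696 and 540 in the Th2-Th1 libraries labelled Setdb1 KO, against 1119.7 and 1151 in the Th2-Th1 WT libraries, now lower with the Setdb1 KO label (-0.74 ± 0.16, limma adjusted p = 0.00139). With the Th2-Th1 libraries fitted alone, neither Lpcat3 (limma adjusted p = 0.0541) nor Abcg1 (0.77, limma adjusted p = 0.0663) was called. Mylip was not called (0.61 ± 0.26, limma adjusted p = 0.0812), but was with TMM scaling (0.69, limma adjusted p = 0.0449). Scd1 had 574, 558.5 and 626 in the Th2-Th1 libraries labelled Setdb1 KO, against 1272 and 1199 in the Th2-Th1 WT libraries. Its groups did not overlap, and it was not called. With the Th2-Th1 libraries fitted alone Scd1 was called lower (-1.08, limma adjusted p = 0.00459).

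A list of 46 further genes of the same pathways, 39 of them tested, gave the wider setting. In Th2 cells 12 were higher and 14 lower with the Setdb1 KO label, where 29.3% and 24.7% of all genes were. Plin2, which coats lipid droplets, averaged 252 ± 109 in the Th2 libraries labelled Setdb1 KO and 2524 ± 159 in the Th2 WT libraries (log2 difference -3.43, limma adjusted p = 3.4e-08). Dgat1, which makes triglyceride, averaged 896 ± 239 in the Th2 libraries labelled Setdb1 KO and 4901 ± 355 in the Th2 WT libraries (-2.48, limma adjusted p = 5.98e-08). Abca7, a lipid transporter, averaged 2007 ± 134 in the Th2 libraries labelled Setdb1 KO and 457 ± 36.6 in the Th2 WT libraries (2.13, limma adjusted p = 1.3e-10). In naive cells 4 were higher and 3 lower (7.43% and 3.45% of all genes), led by Acsl4 (0.62) and Mid1ip1 (-0.96). In Th2-Th1 cells 8 were higher and 8 lower (17.6% and 16.1% of all genes), among them Lbr, a sterol reductase (1.22), Acsl3, a fatty acyl-CoA ligase (-1.56), and Soat1, which esterifies cholesterol (-1.27). Th2 culture raised 18 and lowered 7 with the Setdb1 KO label (28.3% and 25.2% of all genes) and raised 24 and lowered 9 in WT (32.8% and 33.1%), with Lipa, the lysosomal lipase, lower at both (-2.08 with the Setdb1 KO label and -2.76 in WT).

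Chromatin was profiled as peak lists, which hold 1 list per group and therefore allow no test. No H3K9me3 peak lay within 1000 bp of a listed start of the 26 genes in the lists of naive Setdb1 KO, naive WT, Th2 Setdb1 KO or Th2 WT cells, where 0.231%, 0.978%, 0.277% and 1.05% of genes had one. Over the whole gene, 1 of 34 members held a peak in the naive Setdb1 KO list and 6 in naive WT, beside 1.75% and 16.0% of genes. None held one in the Th2 Setdb1 KO list and 5 in Th2 WT, beside 1.67% and 17.0%. The 5 were Cyp51, Dhcr7, Srebf2, Elovl6 and Abca1. The Setdb1 KO lists were short, at 1163 and 1708 peaks against 9659 and 12233 in WT. The naive Setdb1 KO list rested on 1 H3K9me3 library, fewer than each of the other H3K9me3 lists. Abca1 kept a peak in naive cells: chr4:53059201-53060150 in the naive Setdb1 KO list lay within the larger WT peak chr4:53059001-53060550, inside the gene. Suv39h1 KO Th2 cells, which lack another H3K9 methyltransferase, had 43404 peaks, on 21 of 34 genes (44.0% of all genes).

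Marks of active starts were there at nearly all of the 26 genes irrespective of label. Accessible chromatin (ATAC-seq) peaks covered 25 starts in the Th2 Setdb1 KO list and 26 in Th2 WT (84.5% and 88.4% of genes), and H3K27ac peaks 25 and 24 (77.3% and 78.6%). Hsd17b7, lower with the Setdb1 KO label in RNA, had an ATAC peak at chr1:169968972-169969662 in the Th2 Setdb1 KO list and chr1:169968954-169969684 in Th2 WT, and both hold the promoter printed above. At Fasn the H3K27ac peak ran over 5550 bp in the Th2 Setdb1 KO list and 3144 bp in Th2 WT. Its score and fold ratio went the other way, at 119 and 6.30 in the Th2 Setdb1 KO list, against 134 and 7.96 in Th2 WT. The Th2 Setdb1 KO list held 40802 H3K27ac peaks and the Th2 WT list 31251. Scap was the gene with an H3K27ac peak near its start in the Th2 Setdb1 KO list and none in Th2 WT. Acaca had no H3K27ac peak in either list at its listed start, which lies inside the gene. A peak present or absent depends on the depth and threshold of each list, and the sources used here state neither.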

How the data were processed

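RNA-seq was analysed in 18 mouse CD4 T cell libraries, with 13 peak lists beside them. Per the submitters' processing notes, cutadapt 1.3, BWA 0.7.10, TopHat2 2.0.5, DESeq and MACS2 2.1.0 were used, on mm10; the annotation and strand setting of counting are not stated. The deposited RNA table holds a normalised signal per gene (read counts divided by a size factor), and 100.0% of its values were whole reads to within 0.01 after division by the value of 1 read. The table held 2 identical copies, of which 1 was used. The deposited peak lists give a score per peak, and most also a fold ratio over background with −log10 p and q values. These are the authors' own and served only to describe or filter peaks.

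Differences were tested by limma 3.58.1 (trend) in R 4.3.3 on log2(value + 1), 1 coefficient per group over all 18 libraries, for the 17254 genes that reached 10 in 2 or more libraries, with Benjamini-Hochberg adjustment and a threshold of 0.05. Fold changes on this scale understate those of low genes. On simulated counts for Th2 cells, 97% of 2-fold changes were recovered. The simulation changed only genes with higher means and gave every gene the same spread, around means shared by all groups. That share is therefore a check of the code and not the power in these data. For Th2 cells by label, edgeR 4.0.16's quasi-likelihood test on the recovered reads called 9386 genes, against 9324 by limma. Alternatives were a pseudocount of 5, no filter, TMM scaling, edgeR and DESeq2 1.42.0 on the recovered reads, only the groups compared, a replicate block, each library left out, and leaving out the 3 naive libraries that stood apart. The 34 genes and the other gene lists were chosen with earlier results of these data known. The rule for named genes named all 34, gave values per library for the gene of each role with the widest difference in each comparison by label, and up to 3 further pathway genes each way; further genes with values per library were chosen after their values were seen. Peaks were matched to genes by an overlap of at least 1 bp, within 1000 bp of a listed start or anywhere in the gene. Python 3.11.15 did the rest.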

Additional observations from a re-analysis of the deposited data

Results flagged for a closer look

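In the 4 naive WT libraries, 1 library stood apart for Insig2, at 390.4, and 1 for Fads2, at 2.5 against 0 in the other 3, which is a count of 2 reads. Chance sets apart about 1 in 20 groups of this size.

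The difference between labels changed with Th2 culture, by the interaction in limma, for 19 genes. The interactions, Th2 minus naive with the Setdb1 KO label less the same in WT on the log2 scale, were Pmvk (-1.49), Mvd (-1.21), Fdps (-1.50), Fdft1 (-1.57), Nsdhl (-0.68), Hsd17b7 (-2.36), Srebf2 (-0.70), Scap (1.14), Insig2 (-1.44), Stard4 (-0.82), Acly (-0.60), Acss2 (-1.83), Acaca (2.04), Fasn (2.08), Elovl6 (-0.92), Scd2 (-1.66), Abca1 (1.16), Mylip (1.86) and Lpcat3 (1.47). The difference changed from Th2 to Th2-Th1 cells for 10 genes, Hmgcs1 (-0.66), Pmvk (1.32), Fdft1 (0.72), Ebp (-0.99), Insig2 (1.93), Acss2 (1.76), Acaca (-1.49), Fasn (-1.39), Mylip (-1.21) and Lpcat3 (-2.19). Both interactions use the Th2 libraries, so they are not independent of each other.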

How the results depend on the processing

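Counts of called genes among the 34 kept within 1.5 times the reported count in all 9 comparisons under a pseudocount of 5, no filter, TMM scaling, edgeR, DESeq2 and the replicate block, and no called value changed sign under any alternative run. The naive comparison by label was the exception elsewhere: 8 genes became 3 when only the naive libraries were fitted, and 4 to 9 when 1 library was left out. Leaving out 1 library gave 18 to 20 calls for Th2 by label, 10 to 14 for Th2-Th1 by label, 30 to 31 for Th2 against naive at either label, 18 to 21 in WT and 11 to 15 with the Setdb1 KO label for Th2-Th1 against Th2, 18 to 20 for the Th2 culture interaction and 9 to 11 for the switch interaction. With peaks at or above the median score only, genes with an H3K9me3 peak numbered 2 in place of 5 in Th2 WT and 12 in place of 21 in Suv39h1 KO cells, since the lists then hold fewer peaks. For the RNA counts the cause was not tested. Groups of 2 to 4 libraries and the few naive reads of Fads2 and Scd1 limit the precision.

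Replicate numbers showed no sign of pairing the samples, but groups this small cannot exclude it. Over 40 pairs with the same number the correlation of deviations had a median of 0.010 and 1 was over 0.1. Over 94 pairs with other numbers the median was -0.003 and 5 were over 0.1. With the replicate block the calls were 9 (naive), 22 (Th2) and 13 (Th2-Th1) by label, 32 in WT and 31 with the Setdb1 KO label for Th2 against naive, 25 in WT and 15 with the Setdb1 KO label for Th2-Th1 against Th2, and 18 and 10 for the Th2 culture and switch interactions. In Th2 cells by label the block added calls for Scd1 (-1.46, limma adjusted p = 0.0039), Srebf1 (0.26, 0.0479) and Srebf2 (-0.32, 0.0454).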
